A study of Homo sapiens with 24 samples.

Results

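The late dose comparison of G-1 was examined in U251 cells, a human glioblastoma line of astroglial origin. It sets 4 arrays of cells exposed to 1 µM G-1 for 72 h against 4 arrays of cells exposed to the IC50 dose of G-1 for 72 h, chosen by the sample titles, of the 24 arrays of the series. The IC50 dose is the inhibitory concentration that the study determined for this line, and it lies below 1 µM. The other 16 arrays were DMSO controls at 24 h and 72 h and the same G-1 doses at 24 h, with 4 arrays in each group. All groups were the same unmodified line, DMSO was the solvent in all of them, and the series describes 4 independent experiments. For the 1 µM 72 h and the IC50 24 h arrays, the duration field of the labels contradicted the title, and the title, which follows the design of the study, was used. The labels and the methods of the study also gave different DMSO concentrations. The 2 questions were which gene programs needed the higher dose after 72 h and which genes moved in opposite directions at the 2 doses.

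G-1 is a synthetic agonist of GPER, a membrane-bound receptor for estrogens that signals through G proteins and can transactivate the EGF receptor and the ERK kinases. At micromolar doses, G-1 is also known to disturb microtubules independently of GPER and to hold cells in mitosis. Glioblastoma cells keep part of the astrocyte program, of which the intermediate filament protein GFAP and the calcium-binding protein S100B are the best known markers.

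Each level below is the log2 fluorescence intensity of a gene's brightest probe relative to the 75th percentile of the array, so that levels are compared between arrays and not between genes. All 8 arrays of 1 µM shared 1 slide and a later scanning session, and all IC50 and DMSO arrays came from the other slides and the earlier session. Slide and scanning session therefore cannot be told apart from the 1 µM dose at one duration, while a constant offset between sessions drops out when the dose differences of 72 h and 24 h are compared. Between 38.0% and 40.7% of the spots were well above background on the 1 µM 72 h arrays, and between 42.3% and 43.9% on the IC50 72 h arrays. At 24 h, the shares were between 38.3% and 40.0% at 1 µM and between 41.6% and 44.5% at IC50. The median background signal was between 48 and 58 on the 1 µM 72 h arrays and between 44 and 48 on the IC50 72 h arrays. The part of this background in the genes called lower at 1 µM was not tested. Of 9 markers of astroglia or glioma lines, 8 were above background on all 8 arrays, and AQP4 was on none. The defining markers PTPRC, AIF1, ITGAM and CX3CR1 of microglia, PECAM1, CLDN5 and TEK of endothelium, and COL1A1, COL3A1, DCN and LUM of fibroblasts were above background on none of the 8 arrays, whereas CSF1R and CD14 of the microglial list and KDR of the endothelial list were on all 8. On the linear scale, the summed level of the 7 microglial markers was between 1.88 and 2.27 at 1 µM and between 1.2 and 1.31 at IC50, and that of the 6 endothelial markers between 3.83 and 4.12 and between 1.84 and 2.28. KDR carried the latter, with log2 means of 1.79 and 0.24, while VWF was at -2.12 and -0.81. The sum of the 6 neuronal markers was between 5.73 and 6.56 at 1 µM and between 7.81 and 10.3 at IC50, and that of the 9 astroglial markers between 1100 and 1260 and between 1500 and 1770. Their part in the results was not tested. In a culture, fewer cells of a state and less RNA per cell cannot be told apart.

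After 72 h, the 2 doses differed in 2717 of 17927 genes tested, at an adjusted p below 0.05 in limma and an absolute fold change above 2. At 1 µM, 987 of these genes were higher and 1730 were lower than at IC50. With each array scaled to its median instead of the 75th percentile, 649 genes were higher and 2333 lower, and the median of all genes shifted from 0.05 to -0.11 log2. The surplus of lower genes lay mostly with dim probes, since 562 of the genes called lower and 47 of those called higher were below background on all 4 arrays of 1 dose. Of the genes called through probes well above background on all 8 arrays, 801 were higher and 879 lower, and by brightest probe these were 4.23% and 4.43% of such genes. By the brightest probe of the 14235 genes with a symbol, 4.52% were called higher and 6.89% lower, and the arrays of the 2 doses did not overlap for 56.8%. With normexp correction, which adds an offset before log2, differences of dim genes were smaller, for example 1.96 in place of 3.37 for IER3 and -1.69 in place of -3.01 for SLC38A3. Against DMSO at 72 h, 21 genes were called at IC50 and 2867 at 1 µM. The former comparison lay within the earlier session, and the latter crossed slide and session, which cannot be told apart from the dose. By brightest probe, 0.0492% of genes were called higher and 0.0632% lower at IC50, and 4.92% and 7.41% at 1 µM.

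Of the 21 gene lists examined, the inflammatory, ERK, MYC, ATF4 and mitotic lists had the highest medians of the dose difference, and the astroglial list had the lowest. The median over all genes was 0.05 log2. Each count of members called between the doses at 72 h is to be read beside 4.52% higher and 6.89% lower of all genes.

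**Figure D1:**
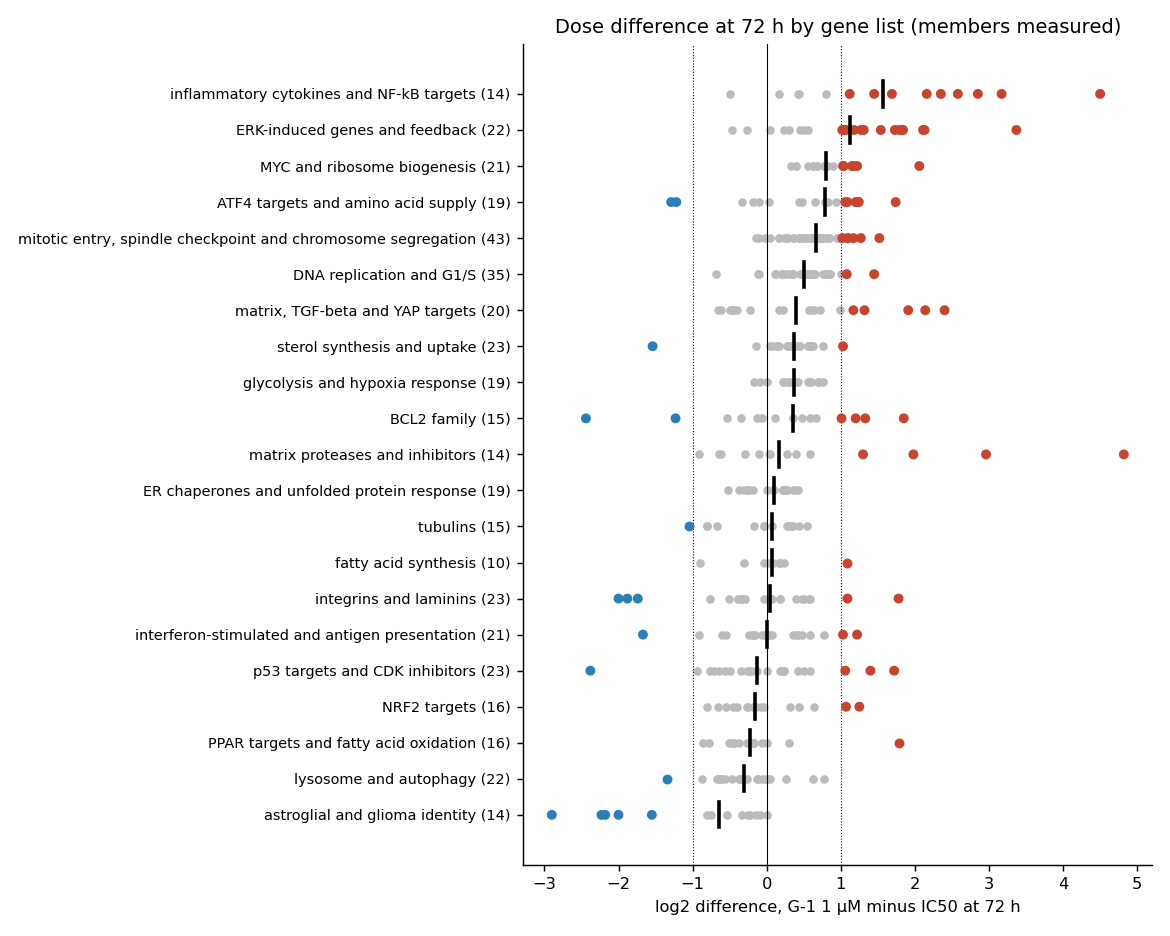
Log2 difference between G-1 1 µM and IC50 at 72 h for each measured member of 21 gene lists, with the number of measured members in brackets. Points in colour passed an adjusted p below 0.05 in limma and a 2-fold change (dotted lines), black ticks are list medians, and the medians run from 1.57 for the inflammatory list to -0.64 for the astroglial list.

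Secreted cytokines and targets of NF-kB, the transcription factor that drives inflammatory genes, rose most with the dose. Of 14 members measured, 9 were higher at 1 µM and 0 lower, against 4.52% and 6.89% of all genes, and the median difference was 1.57 log2. The same members had a median of 0.04 for IC50 against DMSO, with 0 called, and of 0.35 for the dose difference at 24 h. CXCL2, a chemokine that attracts neutrophils, was at 1.02, 1.47, 1.33 and 1.14 on the IC50 arrays and at 4.11, 3.99, 4.21 and 4.03 on the 1 µM arrays. The groups lay far apart, with a difference of 2.85 ± 0.13 log2 (SE; limma adjusted p = 3.4e-12), and the mean of the DMSO arrays was 0.94 ± 0.12 (SD, n = 4). Its paralog CXCL3 was between -1.39 and -0.71 at IC50 and between 1.92 and 2.15 at 1 µM (3.17 ± 0.18, limma adjusted p = 2.4e-11). The coding sequences of these paralogs are alike, and binding of each probe to the other transcript was not tested. IL11, a cytokine of the IL-6 family, rose from between 0.71 and 0.91 to between 3.22 and 3.61 (2.58 ± 0.13, limma adjusted p = 6.3e-12). CSF2, the growth factor GM-CSF, was not above background on any DMSO or IC50 array at 72 h and was between 0.03 and 0.60 on the 1 µM arrays, which makes it at least 13.6-fold higher (limma adjusted p = 1.7e-09). Such a bound sets the mean of the dim group to its own signal or to the lowest signal that was well above background on each array, whichever was higher. CSF2 passed the filter for testing, all 4 arrays of a group above background, only through the 1 µM 72 h arrays. Its p-value therefore adds no independent support. The number of members higher was 8 with only probes above background on all 8 arrays and 7 on all 24. LIF, IL1B, TNFAIP3, BIRC3 and CCL2 also rose, by 1.12 to 2.35 log2. The member furthest in the other direction was NFKBIA, the inhibitor that holds NF-kB in the cytoplasm, at -0.50 log2, which was within the 2-fold limit.

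Promoters of these genes were read from RefSeq (GRCh38.p14) over the 250 bases upstream of the start, and 11 of the 14 measured members were in the table. The NF-kB motif, GGG and TTCC separated by any 3 bases, was found on either strand in 6 of the 11, or 54.5%, against 6.53% of the tested genes and 5.61% of all promoters. Since the list was chosen to name targets of NF-kB, a high share was built into it. The 6 were IL6, CXCL2, CXCL3, TNFAIP3, BIRC3 and NFKBIA, which was lower, while IL11, IL1B and CSF2 held none. The AP-1 motif TGANTCA was found in 1 of the 11, or 9.09%, against 4.27% of the tested genes. The 100 bases upstream of the start are shown for CXCL2 (chr4:74099196-74099295, minus strand) and CXCL3 (chr4:74038690-74038789, minus strand), with the NF-kB motif in capitals, and for IL11 (chr19:55370464-55370563, minus strand), with the AP-1 motif in capitals, because these 3 genes rose by over 2 log2 together. The capitals of CXCL2 and CXCL3 join a match on each strand.
CXCL2: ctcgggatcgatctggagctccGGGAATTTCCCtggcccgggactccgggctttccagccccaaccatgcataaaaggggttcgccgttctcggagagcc
CXCL3: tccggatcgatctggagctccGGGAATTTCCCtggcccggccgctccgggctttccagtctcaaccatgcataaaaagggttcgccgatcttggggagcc
IL11: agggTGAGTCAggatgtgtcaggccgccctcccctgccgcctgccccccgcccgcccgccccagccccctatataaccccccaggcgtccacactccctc
Over the 40 bases around the first capital, CXCL2 and CXCL3 were identical at 38. A match describes these letters and was not tested as a binding site.

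Genes induced by the ERK kinases, together with the phosphatases and Sprouty proteins that feed back on them, formed the list with the most members called. Of 22 measured, 14 were higher at 1 µM and 0 lower, against 4.52% and 6.89% of all genes. The median was 1.12 log2, whereas 0 members were called at IC50 against DMSO. With normexp background correction, 9 members were called. IER3, an immediate early gene that ERK phosphorylates, was at -2.29, -2.27, -1.98 and -2.38 at IC50 and at 1.21, 1.26, 1.08 and 1.04 at 1 µM. This was the highest difference among genes well above background on all 8 arrays (3.37 ± 0.23, 10.4-fold, limma adjusted p = 2.1e-10). SPRY4, a Sprouty inhibitor of receptor signaling, rose from between -0.99 and -0.43 to between 1.08 and 1.72, by 4.37-fold (limma adjusted p = 2.4e-08). DUSP4, a nuclear phosphatase of ERK, rose by 4.32-fold and FOSL1, an AP-1 subunit, by 3.58-fold, and no array of one dose overlapped the other for either gene. Of the remaining members called, ETV4 and ETV5 are ETS factors, DUSP5 and DUSP6 are ERK phosphatases, and CCND1 encodes cyclin D1. Their differences were 1.83, 1.54, 1.79, 1.31 and 1.73 log2. The early responders FOS, EGR1 and EGR2 were not called, with differences of -0.27, 0.45 and 0.24, and JUN was at -0.47. None of the 15 promoters of this list in the table held the AP-1 or the NF-kB motif.

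Of the matrix proteases, the collagenase MMP1 and 3 others rose. MMP1, which cleaves fibrillar collagen, was above background on 1 of the 4 IC50 arrays, at -3.44, -4.12, -4.67 and -4.59, and on all 1 µM arrays, at 0.91, 1.25, 0.37 and -0.08. The fitted difference was 4.82 ± 0.29 log2 (limma adjusted p = 4.1e-11), but its size rests on IC50 values near background and was 1.92 with normexp correction. MMP3, stromelysin 1, rose from between -2.85 and -1.79 to between 0.59 and 0.95 (2.96 ± 0.34, limma adjusted p = 2.8e-07). PLAUR, the urokinase receptor, rose by 3.94-fold, and MMP9, the gelatinase B, by 2.46-fold. These 4 were the members called among 14 measured, against 4.52% of all genes, but MMP1 passed the filter on dim probes only through the 1 µM 72 h arrays and MMP9 was above background on 3 of 4 IC50 arrays. The count was 2 with only probes above background on all 8 arrays and 1 on all 24, and the median of the list was 0.16 log2, close to that of all genes. The inhibitor TIMP2 and the membrane protease MMP15 were lower, at -0.64 and -0.91 log2, both under 2-fold.

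Other genes that led the higher side have no shared pathway in the lists. SPINK1, a secreted trypsin inhibitor, was at 0.10, 0.14, -0.32 and -0.24 at IC50 and at 3.47, 3.38, 3.00 and 2.91 at 1 µM, 9.63-fold higher (limma adjusted p = 5.2e-10). UCN2, a peptide of the corticotropin-releasing family, rose by 7.01-fold, TGM2, the tissue transglutaminase, by 6.92-fold, and MPP4, a membrane scaffold protein, by 6.84-fold. SPANXB1 and SPANXC, cancer-testis genes of the X chromosome with nearly the same sequence, rose by 7.17-fold and 6.59-fold, and their probes may not tell the paralogs apart. UCA1, a long noncoding RNA, was at least 11.8-fold higher and ASB2, a subunit of ubiquitin ligases, at least 6.86-fold higher, since both were below background on all 4 IC50 arrays (limma adjusted p = 2.7e-09 and 1.1e-07). Both passed the filter for testing only through the 1 µM 72 h arrays, so that their p-values add no independent support.

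**Figure D2:**
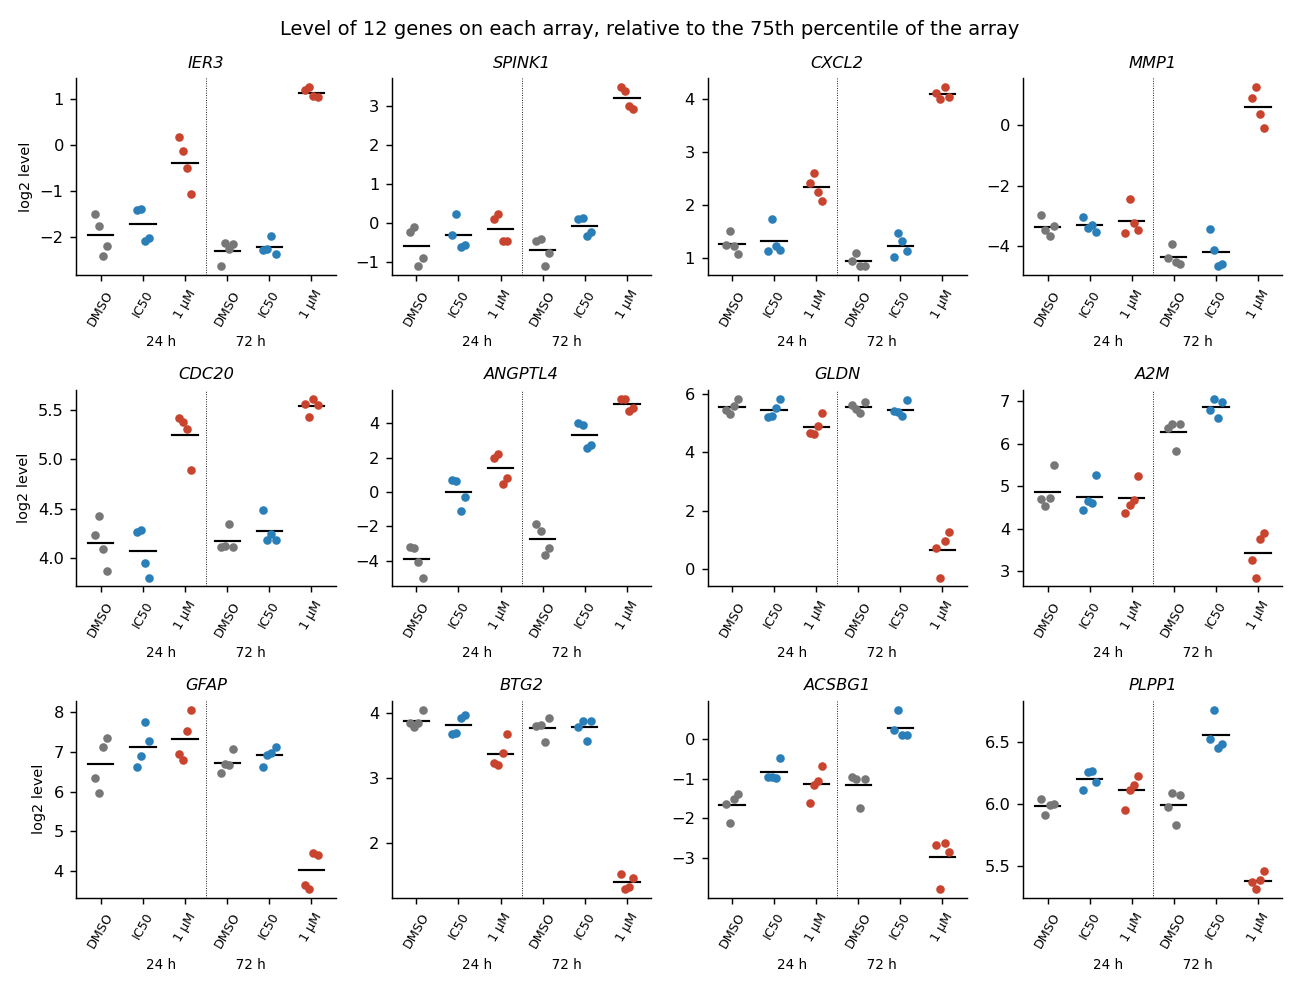
Log2 level of 12 genes on each of the 24 arrays, relative to the 75th percentile of the array, with 4 arrays (points) and their mean (bar) per group. IER3, SPINK1, CXCL2 and MMP1 rose at 1 µM and 72 h, CDC20 was also higher at 1 µM than at IC50 after 24 h, ANGPTL4 was already high at IC50, and GLDN, A2M, GFAP and BTG2 fell at 1 µM and 72 h. ACSBG1 and PLPP1 lay above DMSO at IC50 and below it at 1 µM.

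MYC and the genes of ribosome assembly rose together, mostly by less than 2-fold. All 21 measured members were higher at 1 µM with an adjusted p below 0.05 in limma, which 35.9% of all genes also were, while 29.3% were lower, and 6 exceeded 2-fold. The median was 0.80 log2, against -0.08 for IC50 against DMSO and 0.32 for the dose difference at 24 h. MYC itself, the transcription factor, was at 2.23, 2.56, 3.06 and 3.09 at IC50 and at 5.00, 4.51, 4.81 and 4.87 at 1 µM, without overlap (2.06 ± 0.15, limma adjusted p = 5.2e-10). NOP2, an rRNA methyltransferase, DKC1, the pseudouridine synthase of the H/ACA particles, and NOP16, a nucleolar protein, rose by 2.34-fold, 2.25-fold and 2.23-fold. NPM1 and POLR1A were at 0.39 and 0.33 log2. The count above 2-fold was 3 with normexp correction and 3 with scaling to the array median. None of the 16 promoters of this list in the table held the E-box CACGTG, which 8.76% of the tested genes held.

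Targets of ATF4, the factor of the amino acid response, divided. Of 19 measured, 6 were higher and 2 lower, against 4.52% and 6.89% of all genes, and the median was 0.79 log2. CHAC1, which degrades glutathione, rose from between 1.34 and 1.69 to between 3.12 and 3.60 (3.33-fold, limma adjusted p = 4.3e-08). DDIT3, the stress factor CHOP, and MTHFD2, a mitochondrial folate enzyme, rose by 2.37-fold and 2.36-fold, TRIB3, a pseudokinase, by 2.29-fold, and SLC7A5 and SESN2 by 1.09 and 1.06 log2. ATF3, a stress-induced repressor, fell from between 5.53 and 5.88 to between 4.36 and 4.45 (2.45-fold lower, limma adjusted p = 1.0e-07), in the same direction at all 4 of its probes tested, and VLDLR was also lower, at -1.22 log2. The endoplasmic reticulum chaperones had 0 of 19 members called, with a median of 0.10 log2 and a range from -0.52 to 0.42.

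Genes of mitotic entry, the spindle checkpoint and chromosome segregation were higher at 1 µM, but to the same extent as after 24 h. At 72 h, 7 of 43 were called higher and 0 lower, against 4.52% and 6.89% of all genes. At any fold, 33 were higher with an adjusted p below 0.05 in limma, against 35.9% of all genes. The median was 0.66 log2. At 24 h, 5 were called higher and 0 lower, against 0.316% and 1.12% of all genes, and the median was 0.63. AURKA, the kinase of centrosome maturation, was at 4.62, 4.59, 4.23 and 4.48 at IC50 and at 6.08, 5.81, 6.10 and 6.02 at 1 µM (1.52 ± 0.12, limma adjusted p = 1.6e-09). CDC20, the activator of the anaphase-promoting complex, rose from between 4.18 and 4.49 to between 5.43 and 5.62 (1.27 ± 0.13). BORA, a cofactor of AURKA, rose by 2.14-fold, CCNA2, which encodes cyclin A2, by 2.25-fold, and PLK1, the polo-like kinase, by 2.02-fold. At 24 h, the differences were 1.21 log2 for AURKA, 1.18 for CDC20, 1.03 for BORA and CCNA2, and 0.98 for PLK1. The change in the dose difference from 24 h to 72 h had 95% intervals from -0.05 to 0.66 for AURKA, from -0.29 to 0.47 for CDC20 and from -0.42 to 0.49 for PLK1. Of the 43 members, 0 were called for this change. A difference that is alike at both durations cannot be told apart from a constant offset of slide and scanning session. Many members lay close to the 2-fold limit, so that the count was 12 without 1 µM replicate 2, 3 with scaling to the array median and 3 with normexp correction.

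The cell cycle homology region TTTGAA, a known element of promoters of mitotic genes, was found in 19 of the 35 promoters of this list in the table, or 54.3%, against 8.74% of the tested genes. The CCAAT box was found in 28, or 80%, against 35.3%. These shares come with the choice of a mitotic list and were not compared between members that rose and the others. The E-box was found in 5, the NF-kB motif in 3 and the AP-1 motif in 0. The 100 bases upstream of the start are shown for CDC20 (chr1:43358881-43358980, plus strand) and PLK1 (chr16:23678789-23678888, plus strand), with TTTGAA in capitals, since both rose at either duration.
CDC20: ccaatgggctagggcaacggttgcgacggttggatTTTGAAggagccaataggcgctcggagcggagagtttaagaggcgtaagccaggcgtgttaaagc
PLK1: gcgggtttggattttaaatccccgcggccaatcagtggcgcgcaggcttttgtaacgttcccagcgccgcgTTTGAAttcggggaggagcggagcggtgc

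DNA replication genes had a median of 0.50 log2 at 72 h and 0.28 at 24 h. Of 35 measured, 3 were called higher and 0 lower, against 4.52% and 6.89% of all genes. These were ORC6 and ORC1, subunits of the origin recognition complex, and RFC3, a clamp loader, at 1.45, 1.00 and 1.08 log2. With normexp correction or scaling to the array median, 1 exceeded 2-fold. The change in the dose difference from 24 h to 72 h had an adjusted p of 0.0013, 0.0174 and 0.0172 in limma for ORC6, ORC1 and RFC3, at 0.78, 0.63 and 0.73 log2. Tubulin genes showed little dose difference, with a median of 0.07 log2 over 15. Only TUBB2B was called, 2.07-fold lower (limma adjusted p = 1.6e-07), and TUBB3 and TUBA4A were at -0.67 and -0.80. TUBB2B lay close to the 2-fold limit, and 0 tubulins were called without 1 µM replicate 2, without IC50 replicate 4 or with normexp correction.

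Astroglial genes fell at the higher dose. Of 14 list members measured, 0 were higher and 5 lower at 1 µM, against 4.52% and 6.89% of all genes. The median was -0.64 log2, or -0.51 with NFIA, which was below background at 1 µM, set to its bound. The 14 included GPER1, which is not an astroglial marker and was not called. The list had a median of -0.02 for IC50 against DMSO and of -0.12 for the dose difference at 24 h, with 0 called in either. GFAP was at 6.63, 6.93, 6.99 and 7.12 at IC50 and at 3.65, 3.56, 4.45 and 4.41 at 1 µM (-2.90 ± 0.31 log2, 7.45-fold lower, limma adjusted p = 1.2e-07). Its 3 probes gave -2.90, -2.99 and -3.58. S100B was lower by 4.00-fold, PDGFRA, the receptor of platelet-derived growth factor, by 4.71-fold, and CHI3L1, a secreted glycoprotein of reactive astrocytes, by 4.54-fold, each without overlap of the groups. The stem cell factor SOX2 was at -0.81 log2, and VIM, NES, EGFR and SOX9 lay between -0.25 and -0.09. GPER1, the gene of the receptor, was at 1.94, 2.15, 2.06 and 2.09 at IC50 and at 1.36, 1.19, 1.39 and 1.30 at 1 µM. This was 1.68-fold lower (limma adjusted p = 1.2e-06), and the dimmest of its 4 probes gave 0.20 log2 (limma adjusted p = 0.5839).

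The strongest decrease among genes well above background was that of GLDN, gliomedin, an adhesion protein of the nodes of Ranvier. It was at 5.40, 5.37, 5.23 and 5.77 at IC50 and at 0.73, -0.29, 0.95 and 1.28 at 1 µM, 27.4-fold lower (limma adjusted p = 6.3e-12), and DMSO lay between 5.32 and 5.70. A2M, the protease inhibitor alpha-2-macroglobulin, fell from between 6.61 and 7.06 to between 2.85 and 3.89 (10.7-fold lower, limma adjusted p = 4.5e-10). The chemokine receptor ACKR3, the semaphorin SEMA5B, the NMDA receptor subunit GRIN2A and the glutamine transporter SLC38A3 were lower by 8.90-fold, 8.59-fold, 8.10-fold and 8.08-fold. ELMOD1, C20orf141 and FRZB, a secreted antagonist of WNT, were lower by 8.29-fold, 9.76-fold and 7.36-fold. These 9 genes were chosen among those whose dose groups did not overlap, as 56.8% of all genes did not. SLC47A2, a transporter of organic cations, GDA, the guanine deaminase, and RGS8, a regulator of G protein signaling, were below background on all 1 µM arrays and were at least 6.34-fold, 4.75-fold and 4.73-fold lower (limma adjusted p = 4.1e-11, 1.2e-07 and 8.1e-07).

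Regulators of growth arrest and cell death moved both ways. BTG2, an antiproliferative target of p53, fell from 3.79, 3.88, 3.56 and 3.87 at IC50 to 1.52, 1.29, 1.32 and 1.46 at 1 µM (5.19-fold lower, limma adjusted p = 2.3e-12). Other p53 targets rose, with AEN, a nuclease, at 3.30-fold and GDF15, a secreted stress cytokine, at 2.64-fold, whereas CDKN1A and MDM2 were at 0.18 and -0.27 log2. The list of p53 targets and CDK inhibitors had 3 of 23 members higher and 1 lower, with a median of -0.13. Of all genes, 4.52% were higher and 6.89% lower. Among 15 members of the BCL2 family, 4 were higher and 2 lower, beside the same shares of all genes. The higher numbered 2 without IC50 replicate 4 or with normexp correction. The BH3-only genes HRK and PMAIP1 rose by 3.60-fold and 2.51-fold (limma adjusted p = 6.0e-09 and 5.0e-09), BIK, which was above background on 3 of 4 IC50 arrays, by 2.29-fold, and the survival gene BCL2L1 by 2.02-fold. BMF and BCL2L11, 2 other BH3-only genes, were lower by 5.43-fold and 2.34-fold by their brightest probes. A further probe of BCL2L11 gave 0.81 log2 (limma adjusted p = 2.1e-07), so that its probes disagreed in direction.

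Adhesion and matrix genes also divided by member. The YAP targets ANKRD1 and CCN2 rose by 4.40-fold and 3.76-fold (limma adjusted p = 6.9e-06 and 4.4e-09), without overlap of the groups. SMAD7, the feedback inhibitor of TGF-beta, and LOX, which crosslinks collagen, rose by 1.32 and 1.17 log2. With 5 of 20 members higher and 0 lower (3 higher with normexp correction), the median of this list was 0.39 log2, and the collagens COL1A2, COL6A2 and COL5A2 were at -0.66, -0.62 and -0.50. Among integrins and laminins, 2 of 23 were higher and 3 lower, against 4.52% and 6.89% of all genes. Only 1 was higher without 1 µM replicate 2, without IC50 replicate 4, with normexp correction or with scaling to the array median. ITGB4 and ITGA11 fell by 1.74 and 2.00 on the log2 scale (limma adjusted p = 5.5e-12 and 6.6e-09). LAMA1 was below background at 1 µM and at least 2.14-fold lower. ITGB3, the integrin beta 3 chain, was at 0.70, 0.35, 0.30 and 0.03 at IC50, at 1.37, 1.92, 1.16 and 1.28 at 1 µM, and between 1.87 and 2.37 in DMSO. It thus lay lowest at the lower dose (IC50 against DMSO -1.73, limma adjusted p = 3.5e-04).

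Lipid genes did not share 1 dose pattern. Of 16 targets of PPAR, the nuclear receptors for fatty acids, ANGPTL4 and PDK4 were called higher at IC50 than in DMSO at 72 h, with a list median of 0.12 log2, against 0.0492% of all genes called higher. ANGPTL4, a secreted inhibitor of lipoprotein lipase, was between -3.64 and -1.87 in DMSO, at 4.03, 3.92, 2.56 and 2.75 at IC50 and at 5.43, 5.39, 4.70 and 4.87 at 1 µM. It rose by 6.07 log2 at IC50 and by a further 1.78 ± 0.51 at 1 µM (limma adjusted p = 0.0045), and replicates 1 and 2 lay above replicates 3 and 4 in each group. On 2 of the 4 DMSO arrays it was not above background. PDK4, which blocks glucose oxidation, and CPT1A, which admits fatty acids to mitochondria, were at 1.82 and 0.82 log2 over DMSO at IC50 and at 1.45 and 0.75 at 1 µM. The dose difference had 95% intervals from -0.83 to 0.10 for PDK4 and from -0.20 to 0.05 for CPT1A. ACADS, which oxidizes short-chain fatty acids, was at -0.86 log2 between the doses. MGLL, the lipase of monoacylglycerols, was between 2.98 and 3.52 at IC50 and between 4.66 and 5.04 at 1 µM, 2.90-fold higher (limma adjusted p = 3.7e-09).

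Sterol genes had a median dose difference of 0.37 log2 over 23 measured, and 21 were above 0. MSMO1, a sterol demethylase, was 2.05-fold higher, and TM7SF2, a sterol reductase, was 2.90-fold lower (limma adjusted p = 3.7e-04 and 2.4e-09). MSMO1 was close to the limit, and 0 sterol genes were called higher without 1 µM replicates 1 or 3, without IC50 replicate 2, with normexp correction or with scaling to the array median. The 95% intervals of the dose difference held 0 for LSS (-0.08 to 0.68), INSIG1 (-0.08 to 0.62), STARD4 (-0.01 to 0.66) and MVD (-0.20 to 0.98). In the fatty acid synthesis list, ACLY, which makes cytosolic acetyl-CoA, was 2.12-fold higher, while IC50 replicate 4 was at 3.38 and the other IC50 arrays between 4.20 and 4.39. Without that array, or with scaling to the array median, 0 members were called higher. The intervals held 0 for FASN (-0.15 to 0.61) and FADS1 (-0.20 to 0.34). SREBF1, the regulator of this pathway, was at -0.90 log2 (limma adjusted p = 4.2e-08) by its brightest probe. Its other probe showed no difference (limma adjusted p = 0.9965) but was far dimmer, with a mean level of -0.23 against 7.69 over all arrays.

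The remaining lists had few members called, beside 4.52% higher and 6.89% lower of all genes. Glycolysis and hypoxia genes had 0 of 19 members called and a median of 0.37 log2, with HK2 and VEGFA at 0.76 and 0.69. Lysosomal genes had 0 higher and 1 lower of 22, with a median of -0.31, and GAA, the acid glucosidase, was 2.53-fold lower (limma adjusted p = 3.6e-11). NRF2 targets had 2 higher of 16 and a median of -0.16, with 1 higher under normexp correction or scaling to the array median. Heme oxygenase HMOX1 was at 1.25 log2 and the transporter ABCC2 at 1.07, whereas NQO1, the quinone reductase, was at -0.81. Interferon-stimulated and antigen presentation genes had 2 higher and 1 lower of 21, with 1 higher without 1 µM replicate 2 or 4 and 0 with normexp correction. IFI44L and IRF1 rose by 2.34-fold and 2.04-fold, and HLA-C, whose probe may bind transcripts of its paralogs, was 3.17-fold lower (limma adjusted p = 2.6e-07).

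To separate late from lasting differences, the dose difference at 72 h was set against that at 24 h in the same fit. At 24 h, 594 genes were called between the doses, 100 higher and 494 lower. The dose difference itself differed between the durations for 1045 genes, more positive at 72 h for 417 and more negative for 628. By the brightest probe, 2.05% of the genes with a symbol were called as more positive and 3.25% as more negative. Among the lists, 7 of 14 inflammatory members, 4 of 14 matrix proteases and 4 of 22 ERK genes were called as more positive. The inflammatory count includes CSF2, which passed the filter for testing only through the 1 µM 72 h arrays, as did MMP1 of the protease list. Such members add no independent support for a late difference, and counts without them are not given. Of the 14 members of the astroglial list, 4 were called as more negative. In the ERK list, FOS was called in the other direction, at -1.0 log2. MMP3 differed by 0.40 log2 between the doses at 24 h and by 2.96 at 72 h, and MMP1 was above background on 1 of 4 arrays of either dose at 24 h. GFAP was at 0.20 at 24 h and -2.90 at 72 h. The 5 genes above background on all G-1 arrays with the most positive change were SPINK1, MMP3, SPANXB1, UCN2 and SPANXC, at 3.10, 2.56, 2.45, 2.30 and 2.28 log2. The 5 with the most negative change were GLDN, A2M, GFAP, SLC38A3 and SEMA5B, at -4.21, -3.39, -3.10, -2.69 and -2.63.

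**Figure D3:**
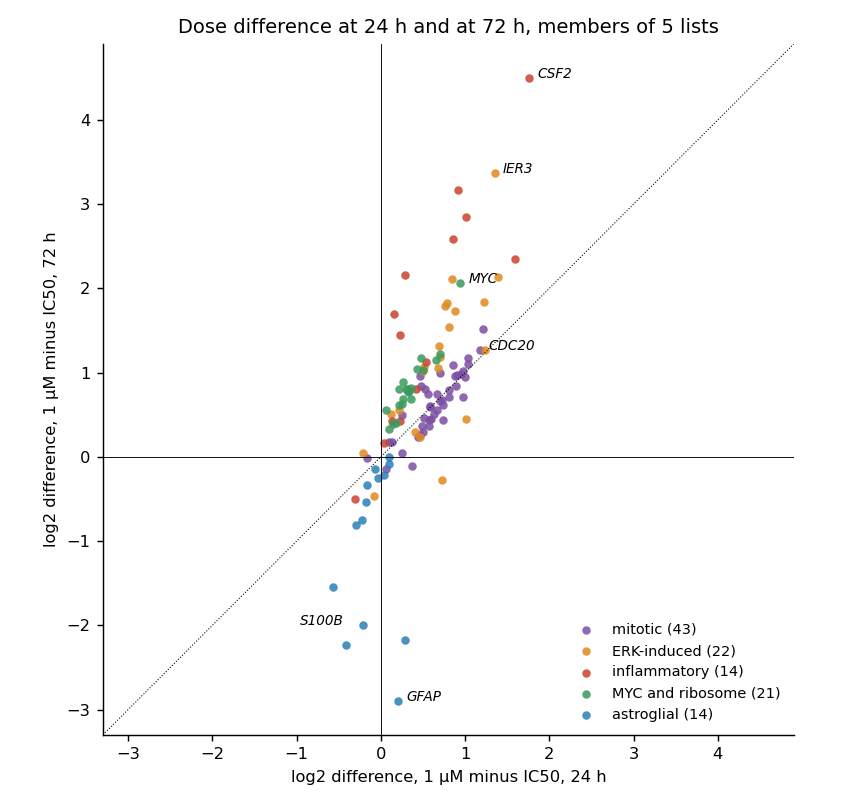
Log2 difference between 1 µM and IC50 at 72 h (vertical) against that at 24 h (horizontal) for the measured members of 5 gene lists, with the line of equal differences dotted. Mitotic genes lie along the line, with medians of 0.63 at 24 h and 0.66 at 72 h, whereas inflammatory genes lie above it (0.35 and 1.57). Members of the astroglial list, which includes GPER1, lie below it at 72 h (-0.12 and -0.64).

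Genes on opposite sides of the control were sought by comparing each dose with the same DMSO 72 h arrays. Because these comparisons share the DMSO arrays, their values are given side by side without a test of their likeness. Only the 1 µM comparison crossed slide and scanning session, which cannot be told apart from the dose. Of the 14235 genes with a symbol, 126 had an adjusted p below 0.05 in limma at IC50, 61 higher and 65 lower than DMSO, and 99 of these also did at 1 µM. At both doses, 81 of them moved the same way and 18 in opposite directions, or 0.126% of the genes tested. Of the 18, 13 were higher at IC50 and lower at 1 µM, and 5 the reverse. All 18 also had an adjusted p below 0.05 between the doses, which follows from their selection and adds no support. Among them, 5 exceeded 1.5-fold in both directions. The number was 9 with scaling to the array median, 7 without a filter on dim probes and 50 with the replicate number as a block. It was 11, 8 and 9 without DMSO replicates 1, 3 and 4, and 10 and 9 without IC50 replicates 2 and 4.

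ACSBG1, a very long chain acyl-CoA synthetase of brain, was the 1 gene over 2-fold in both directions. It was between -1.73 and -0.95 in DMSO, at 0.22, 0.74, 0.11 and 0.09 at IC50 and at -2.68, -3.77, -2.63 and -2.85 at 1 µM, where 1 of the 4 arrays was above background. The 3 groups did not overlap. It was 1.46 log2 above DMSO at IC50 (limma adjusted p = 0.0036) and at -1.81 relative to it at 1 µM (limma adjusted p = 2.5e-06). EXTL1, a glycosyltransferase of heparan sulfate synthesis, was at 0.81 at IC50 and -1.52 at 1 µM relative to DMSO, also with 1 of 4 arrays above background at 1 µM. TENT5C, a poly(A) polymerase, was at 0.67 and -1.10, and ROPN1, a sperm flagellum protein, at 0.52 and -1.06. PLPP1, a lipid phosphate phosphatase, was between 5.83 and 6.09 in DMSO, between 6.45 and 6.76 at IC50 and between 5.32 and 5.46 at 1 µM, at 0.56 and -0.61. RDH10, a retinol dehydrogenase, was at 0.67 and -0.69, and CAT, the peroxisomal catalase, at 0.62 and -0.39. SLC27A3, an acyl-CoA synthetase, and the mitochondrial glutamate carrier SLC25A18 were at 0.57 and -0.25 and at 0.61 and -0.42. LINGO2 was at 0.51 and -0.30, and it was the only one of the 18 that was called opposite under each of 12 other settings and in each of 12 fits that left out 1 array of a 72 h group. ACSBG1, EXTL1, PLPP1 and ROPN1 were also opposite in all 12 of these fits, whereas RDH10 and SLC25A18 were in 5. ACSBG1 and EXTL1 were lost only under the stricter filters on dim probes, which removed their probes. FEZF1-AS1, CHST15 and COL9A3 were at 0.71 and -0.50, 0.70 and -0.37, and 0.53 and -0.44.

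In the other direction, STEAP1B, of a family of metalloreductases, was between 0.78 and 0.95 in DMSO, between 0.40 and 0.63 at IC50 and between 1.68 and 2.10 at 1 µM, at -0.38 and 1.01 relative to DMSO. MIR3681HG, a noncoding host gene, was at -0.59 and 0.72, and MEGF6 at -0.64 and 0.33. PPARGC1B, a coactivator of mitochondrial genes, was at -0.55 and 0.31, and the noncoding RNA SNHG8 at -0.24 and 0.23. Of the 12 fits that left out 1 array, MIR3681HG was opposite in 9, STEAP1B in 6, SNHG8 in 3, and MEGF6 and PPARGC1B in 1 each. At 24 h, the dose differences of STEAP1B, ACSBG1, EXTL1 and PLPP1 were 0.06, -0.29, -0.12 and -0.10 log2. Their change from 24 h to 72 h was 1.33, -2.99, -2.21 and -1.07 (limma adjusted p = 2.3e-07, 4.2e-06, 1.8e-07 and 7.5e-07). These genes were chosen by their 72 h values, which the change uses again, so that the choice favours a large change.

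**Figure D4:**
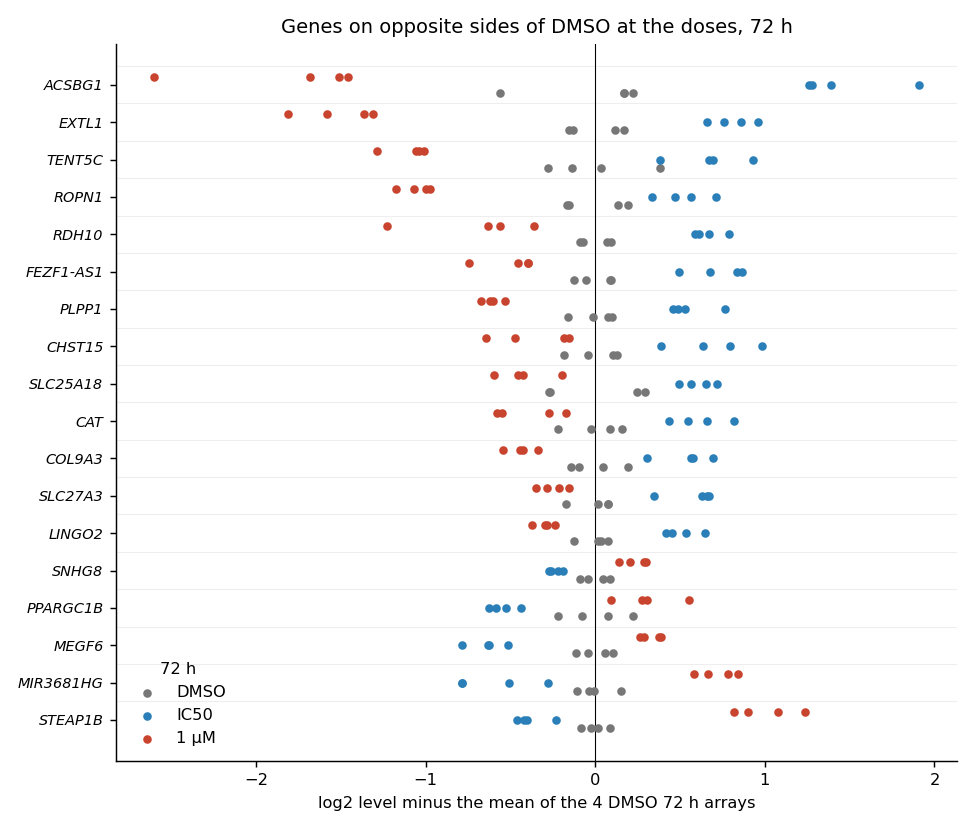
Log2 level of the 18 genes that lay on opposite sides of DMSO at the IC50 and 1 µM doses after 72 h, each array given relative to the mean of the 4 DMSO arrays. For the upper 13 genes the IC50 arrays lie to the right and the 1 µM arrays to the left, and for the lower 5 the reverse, with ACSBG1 furthest apart at 1.46 and -1.81.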

How the data were processed

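RNA of U251 cells was hybridized to 1-colour Agilent arrays, 4 per group. The authors deposited the fluorescence intensity of each spot as Feature Extraction wrote it (background-subtracted, with quality flags; version 12.1.1.1 per the file headers, 10.7.3.1 per the submitters' processing notes) and probe values on the log2 scale. From the intensities, outlier spots were dropped, spots of a probe were averaged as log2, and each array was centred on its 75th percentile. These values differed from the deposited log2 table, centred per probe, by a median of 0.00142 log2, and the table served as an alternative. A probe was tested if any group had it well above background on its 4 arrays, which left 22970 of 58118 probes and 17927 genes, of which 14235 had a symbol through RefSeq accessions. With limma 3.58.1 (R 4.3.3; lmFit, eBayes), 1 mean per group was fitted over the 24 arrays, and p-values were adjusted by Benjamini-Hochberg over the tested probes. Called genes had an adjusted p below 0.05 and changed over 2-fold. The number of arrays limits the precision. The fits were tested on simulated data.

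Genes were named by a fixed rule: the 10 highest and 10 lowest differences among called genes above background on all 8 arrays without overlap, the 3 highest bounds on each side, 12 opposite-direction genes, 5 interactions on each side, up to 4 called members of each list, and genes that the study names. A few named genes are not reported here. Further list members and the remaining opposite-direction genes were chosen after their values were seen. The comparison, the gene lists and the motifs were chosen with earlier results of these data known. Alternatives were quantile normalization, the 50th percentile, normexp with an offset of 50 on the median signal, no filter or stricter filters on dim probes, the deposited table, an intensity trend, the replicate number as a block, the slide as a random block, only the arrays compared, the methods' t-test, no fold threshold and each array left out. The block within each duration was added after seeing the data. Promoters came from a RefSeq table and were searched on both strands.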

Additional observations from a re-analysis of the deposited data

Results flagged for a closer look

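In 204 groups of 4 arrays (102 named genes at both doses and 72 h), there were 5 in which a single array stood apart from the other 3 by Dixon's criterion, which is fewer than the 1 in 20 that chance gives. SPANXC was at -1.0 on IC50 72 h replicate 4 and between -0.64 and -0.61 on the other arrays. HMOX1 was at 5.34 on IC50 72 h replicate 3, with the others between 5.74 and 5.80, and BMF was at 0.24 on the same array, with the others between 0.45 and 0.49. CHI3L1 was at 0.89 on 1 µM 72 h replicate 4, with the others between 0.71 and 0.74. PMAIP1 was at 4.56 on 1 µM 72 h replicate 2, with the others between 4.87 and 4.94.

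The dose difference differed between 72 h and 24 h for 1045 genes, by the interaction term in limma. Of the genes above background on all G-1 arrays, the change was 3.10 log2 for SPINK1, 2.56 for MMP3, 2.45 for SPANXB1, 2.30 for UCN2 and 2.28 for SPANXC. It was -4.21 for GLDN, -3.39 for A2M, -3.10 for GFAP, -2.69 for SLC38A3 and -2.63 for SEMA5B. For these 10 genes, limma adjusted p lay between 1.1e-08 (SLC38A3) and 5.8e-04 (MMP3).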

How the results depend on the processing

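Among the 102 genes named by the fixed rule, no called gene changed the sign of its 72 h dose difference under any alternative. Other genes named here were not followed in this way. Without the filter on dim probes, the higher genes outnumbered the lower ones. With the 50th percentile, the fatty acid synthesis list had 0 higher and 1 lower in place of 1 and 0. Between the doses at 72 h, the genes called numbered 875 with normexp correction, 5124 without a filter on dim probes, 1682 and 1591 with only probes above background on all 8 or all 24 arrays, and 12217 without a fold threshold. Those higher numbered 649 with the 50th percentile, 335 with normexp, 2980 without the filter and 6333 without the threshold, and those lower 540 with normexp, 880 and 868 with the stricter filters and 5884 without the threshold. The share of higher genes among those called was 36.3%, against 21.8% with the 50th percentile, 58.2% without the filter and 47.7% with the 8-array filter. For the change from 24 h to 72 h, 294 genes were called with normexp, 665 and 612 with the stricter filters and 5053 without the threshold. For IC50 against DMSO, 3 were called with normexp, 12 and 10 with the stricter filters, 144 without the threshold, and 38 by the methods' t-test or 4 after Benjamini-Hochberg adjustment of it. For 1 µM against DMSO, 914 were called with normexp, 4303 without the filter, 1808 and 1696 with the stricter filters and 12385 without the threshold. The opposite-direction genes numbered 9 with the 50th percentile, 7 without the filter and 7 with only the arrays compared, and all 18, or the 16 that passed the stricter filters, kept opposite signs in each of these settings. With 1 array left out in turn, the ranges were 2567 to 2837 genes called, 925 to 1062 higher, 1642 to 1833 lower, 916 to 1118 for the change with duration, 18 to 22 for IC50 and 2809 to 2946 for 1 µM against DMSO, and 8 to 20 in opposite directions. With the slide as a random block, 2663 genes were called. Since all 1 µM arrays shared a slide that held no other group, this setting cannot separate the slide from the dose. The replicate numbers did not pair the arrays of the 2 doses, whose same-numbered deviations correlated between -0.09 and 0.19, with 2 of 4 highest for their own number. Those of IC50 and DMSO at 72 h, on which the opposite-direction count also rests, correlated between 0.05 and 0.48, with 3 of 4 highest for their own number. With the replicate number as a block, 50 genes were opposite over all 24 arrays and 62 with a block within each duration, and no other count left 1.5 times its value under the block. The cause of these shifts was not tested. By the adjusted p threshold of 0.05 alone, 96 of the 102 named genes stayed on their side throughout and 6 passed it in some settings. The 2-fold limit was not part of this count. Some called genes fell under it in a setting, for example MSMO1 at 0.75 and BORA at 0.89 log2. Signal over background limits the genes lower at 1 µM, since 44.0% of the lower called probes were among the dimmest 20% and 568 of 1856 were above background on no 1 µM array.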
